A study of Rattus norvegicus with 4 samples.

Results

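Transcripts of the serpin protease inhibitor family were examined together with those of Wfdc2 and Slpi, inhibitors of the whey acidic protein type. The genes were chosen by name, as those with a probe set annotated to a single gene whose symbol begins with Serpin or is Wfdc2 or Slpi. This gave 35 genes (33 serpins) on 40 probe sets, out of 14217 named genes. Levels were measured on 1-colour arrays in 4 mammary cancers from female Sprague-Dawley rats, an outbred stock, with 1 array per tumour. All 4 cancers form 1 group: the rats received a whole-body carbon-ion dose of 0.5 Gy (290 MeV/u, spread-out Bragg peak of 6 cm) when 7 weeks old. The rats were purchased when 5 weeks old, and after 9 weeks of age they ate an AIN-76A diet of which 23.5% was corn oil. The labels do not say whether each tumour came from its own rat, and unirradiated or normal tissue is not analysed here, so no value measures an effect of radiation or diet. The tumours are compared with one another, without technical replicates and with no test between groups.

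Serpins are a family of proteins that share one fold, in which an exposed reactive centre loop acts as bait for a target protease. Cleavage of the loop springs the fold and traps the protease in an inactive complex, so most family members are single-use inhibitors of serine or cysteine proteases, while a few are chaperones or hormone carriers. The family is divided into lettered clades: clade A holds secreted plasma proteins made mainly in liver, clade B holds proteins that work largely inside cells, and clades C to I hold antithrombin, protease nexin, the complement inhibitor and relatives. Wfdc2 and Slpi are small secreted proteins with whey acidic protein domains, and Slpi inhibits leukocyte serine proteases at epithelial surfaces. In mammary gland and its tumours these inhibitors face proteases of matrix turnover, clotting, complement and leukocytes.

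Values are log2(intensity + 16) with the arrays brought to a common median, and they apply to tumours 1 to 4 in that order. A difference of 1 is 2-fold for a bright probe set and understates the change of a dim one. A gene is called expressed when its mean reaches the median of all probe sets, 7.81, an intensity of about 209. By that rule 9403 of all 14217 named genes were expressed. Of the 35 members 11 met the rule: Serpina4, Serpinb1a, Serpinb6a, Serpinb6b, Serpinb9, Serpine2, Serpinf1, Serping1, Serpinh1, Slpi and Wfdc2. The other 24 were under it, and 3 of these, Serpinb2, Serpinb10 and Serpina3n, reached the level in 1 tumour. Of the cell type marker lists, 15 of 17 luminal epithelial genes were expressed, as were 16 of 17 basal and myoepithelial genes and none of 17 measured liver genes. No marker of any list was at 0.

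Expressed members differed widely between tumours. The highest and lowest tumour lay at least 1 log2 apart for 7 of the 11, and the same was true of 13.0% of 9403 expressed genes. A distance of at least 2 log2 was reached by 4 of the 11, Wfdc2, Serpinb1a, Serpine2 and Serpinb9, and by 2.40% of all expressed genes. The standard deviation (SD) over the tumours had a median of 0.70 for the members and 0.23 for all expressed genes. Tumour 1 carried much of this spread: without it 3 of the 11 had a 2-fold range and 1 a 4-fold range, against 5.94% and 1.04% of all expressed genes. Without tumour 3, 2 had a 4-fold range, against 1.79% of all expressed genes. Some members were set off in 1 tumour, by a distance of 1 log2 or more from all 3 of the rest, which is called apart here. In tumour 1 this held for 4 of the 11 members (Serpine2 above, and Wfdc2, Serpinb9 and Serpinb6b below), against 2.18% of all expressed genes. In tumour 3 it held for 1 of the 11 (Serpinb1a, below), against 0.468%. No expressed member was apart in tumour 2 (0.351% of genes) or tumour 4 (0.978%). Dixon's gap ratio, the gap of the most distant tumour over the whole range, passed its critical value for 4 samples in 5 of all 35 members, dim ones included, against 5.99% of 14217 genes. Tumour 1 was lowest for 5 of the 11 members (45.5%), close to the 44.0% found over all expressed genes.

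**Figure D1:**
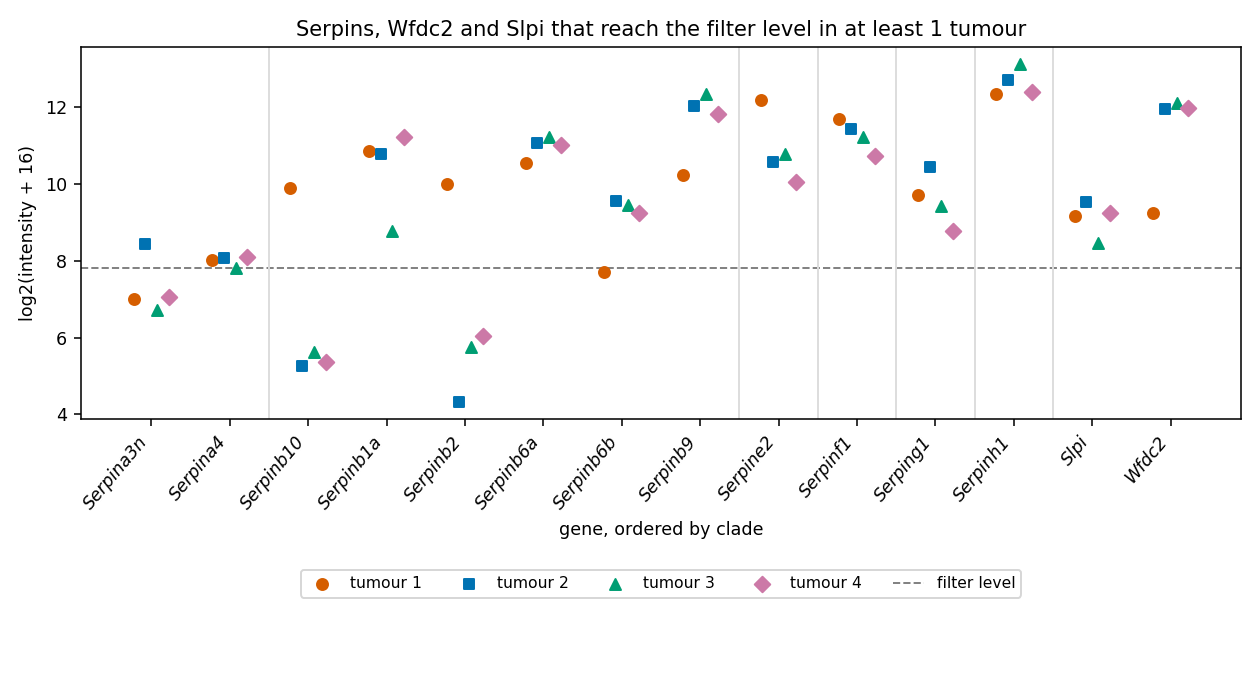
Level of each member that reached the filter level in at least 1 tumour, as log2(intensity + 16), with 1 point per tumour and genes ordered by clade, whey acidic protein members last; the dashed line is the filter level of 7.81. Serpinb2 and Serpinb10 lie near 10 in tumour 1 and at 6.05 or less elsewhere, while Serpinb6b, Serpinb9 and Wfdc2 have tumour 1 as their lowest point.

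**Figure D2:**
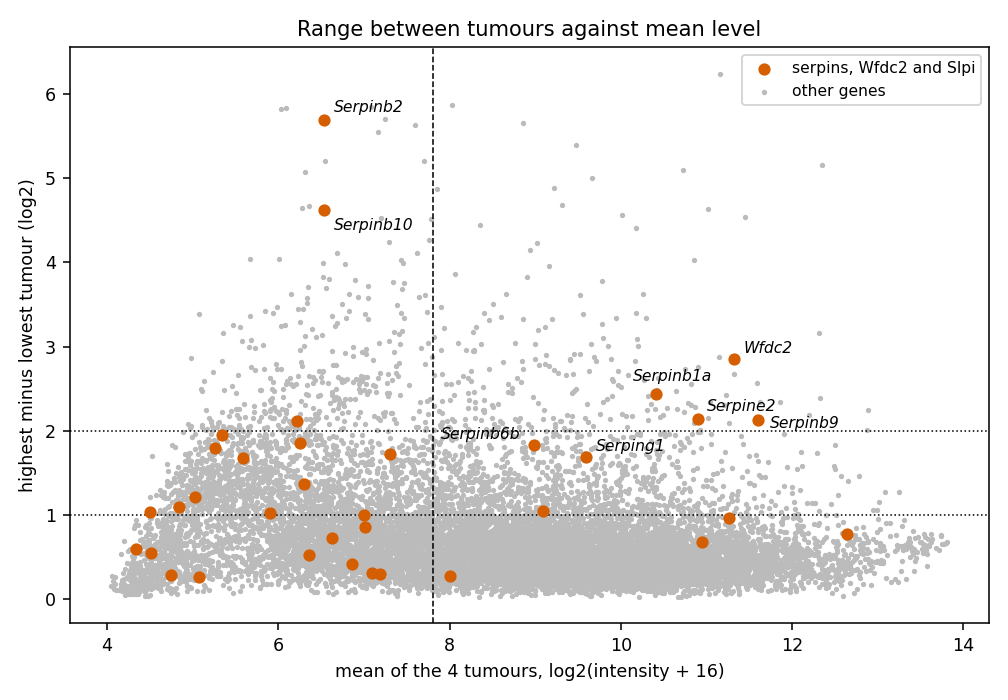
Distance between the highest and lowest tumour (log2) against the mean of the 4 tumours for 14217 genes, with the 35 members in orange and the other genes in grey; the dashed line is the filter level and dotted lines mark 1 and 2 log2. Serpinb2 and Serpinb10 lie left of the filter line with ranges of 5.69 and 4.62, and Wfdc2, Serpinb1a, Serpine2 and Serpinb9 lie above 2 log2 to its right.

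The promoters of 4 members that lay far from the other tumours in tumour 1, in opposite directions, are shown because neighbouring genes were among them. They were chosen after their values were seen. Serpinb2 and Serpinb10 are next to each other on chromosome 13 in the RefSeq annotation of assembly GRCr8 and were high in tumour 1. Wfdc2 on chromosome 3 and Serpinb9 on chromosome 17 were low there. Each RefSeq sequence below runs 5′ to 3′ on the gene's strand over 300 bases, from 250 before the annotated start to 50 after it. The regions are chr13:24055771-24056070 on the + strand for Serpinb2, chr13:24067803-24068102 on the + strand for Serpinb10, chr3:173706225-173706524 on the + strand for Wfdc2 and chr17:31640767-31641066 on the - strand for Serpinb9. Capitals mark matches, on either strand, to any of 4 motifs: AP-1 (TGANTCA), C/EBP (TTGCNNAA), the TATA box (TATAAA) and the GC box (GGGCGG).
Serpinb2: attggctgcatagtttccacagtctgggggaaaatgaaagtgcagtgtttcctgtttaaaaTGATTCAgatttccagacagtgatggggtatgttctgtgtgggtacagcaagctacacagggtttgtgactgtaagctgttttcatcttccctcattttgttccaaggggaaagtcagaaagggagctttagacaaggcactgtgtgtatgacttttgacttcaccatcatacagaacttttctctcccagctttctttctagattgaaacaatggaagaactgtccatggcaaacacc
Serpinb10: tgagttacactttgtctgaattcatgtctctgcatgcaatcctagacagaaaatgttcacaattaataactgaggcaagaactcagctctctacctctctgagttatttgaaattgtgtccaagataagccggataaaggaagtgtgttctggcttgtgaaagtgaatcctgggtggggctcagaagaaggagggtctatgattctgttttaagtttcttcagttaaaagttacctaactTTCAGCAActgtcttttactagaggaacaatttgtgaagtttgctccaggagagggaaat
Wfdc2: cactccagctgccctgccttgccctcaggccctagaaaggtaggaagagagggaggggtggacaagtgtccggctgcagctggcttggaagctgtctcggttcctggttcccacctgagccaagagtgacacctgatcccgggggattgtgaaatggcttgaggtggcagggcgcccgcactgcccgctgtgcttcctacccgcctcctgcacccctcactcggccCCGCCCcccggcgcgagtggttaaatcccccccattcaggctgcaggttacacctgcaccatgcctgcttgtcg
Serpinb9: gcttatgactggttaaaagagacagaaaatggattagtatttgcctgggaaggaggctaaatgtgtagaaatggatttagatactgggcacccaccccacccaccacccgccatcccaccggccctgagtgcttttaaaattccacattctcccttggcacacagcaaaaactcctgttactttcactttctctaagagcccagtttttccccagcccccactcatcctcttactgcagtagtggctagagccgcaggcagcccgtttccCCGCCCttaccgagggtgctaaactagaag
The adjacent pair shared no motif of the 4. Serpinb2 held 1 match to the AP-1 pattern, beginning 189 bases before the start. The pattern allows any central base, and the matched letters were TGATTCA, with T there. Of 33469 rat promoters of this length 7.33% hold a match to the same loose pattern. Serpinb10 held 1 C/EBP match, beginning 10 bases before the start, a motif found in 10.6% of promoters. Wfdc2 held 1 GC box 24 bases before the start and Serpinb9 1 GC box 20 bases after it, and 33.1% of promoters hold one. None of the marked matches overlapped another, and no TATA box match was present in these 4 windows (14.2% of all promoters hold one). Promoters were found for 28 of the 35 members, of which 3 held an AP-1 match, 6 a C/EBP match, 5 a TATA box and 8 a GC box. A match is a run of letters and was not tested as a binding site. GC content was 42.7% and 39.7% in the Serpinb2 and Serpinb10 windows and 64.3% and 50.7% in those of Wfdc2 and Serpinb9.

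Clade B, with 11 genes, held the 2 widest ranges of all 35 members. Serpinb2 encodes plasminogen activator inhibitor type 2, which blocks urokinase and is abundant in stimulated monocytes and keratinocytes. It measured 10.00, 4.31, 5.77 and 6.05, or intensities of 1057, 3.16, 36.2 and 52.5. Tumour 1 stood 3.95 log2 above the next tumour, and the other tumours were all under the filter. Serpinb10, whose human counterpart bomapin is found in blood-forming and monocytic cells, measured 9.88, 5.26, 5.63 and 5.36, with intensities of 972, 21.1, 31.4 and 26.3. It too was high in tumour 1 alone, by 4.25 log2 over the next tumour. A range of at least 4 log2 was found for 0.281% of all 14217 genes. Both genes rested on 1 probe set, and both were under the filter by their mean. Genes under the filter that reach its level in at least 1 tumour must differ between tumours, and 19.7% of 804 such genes had a 4-fold range. Serpinb7, the neighbour of Serpinb2 on the other side, stayed at 5.67 or less on both of its probe sets in every tumour.

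Macrophage transcripts were also highest in tumour 1. Of 17 macrophage markers 15 were expressed and 13 of these were highest in tumour 1 (20.8% of all expressed genes), with a summed intensity of all 17 of 36559 in tumour 1 and 22477, 17270 and 23597 in tumours 2 to 4. Tumour 1 was highest too for 8 of 16 expressed basal and 8 of 14 expressed fibroblast markers, though the basal sum was highest in tumour 4. The part of any of these transcripts in the levels of Serpinb2 and Serpinb10 was not tested. In whole tumour RNA, fewer cells of a type and less RNA per cell cannot be told apart, here and for all genes that follow.

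Serpinb9 and Serpinb6b are neighbours on chromosome 17 and were both lowest in tumour 1. Serpinb9, whose human counterpart inhibits the cytotoxic protease granzyme B and so protects cells from killer lymphocytes, measured 10.23, 12.03, 12.35 and 11.81. Its other probe set, at 10.03, 11.44, 12.21 and 11.39, placed the tumours in the same order. On the brighter probe set tumour 1 lay at least 1.59 log2 below every other tumour, while the 3 others spanned 0.54. On the dimmer one the gap to the next tumour was smaller. The range of 2.12 passed 2 log2 by a narrow margin and was 1.996 with values as deposited. Serpinb6b measured 7.72, 9.55, 9.46 and 9.23, with tumour 1 lowest by 1.51 and just under the filter level. Serpinb6a, an intracellular inhibitor from the same chromosome whose human counterpart acts on thrombin and cathepsin G, measured 10.54, 11.05, 11.22 and 11.00. It shared the low value in tumour 1 but with a range of 0.68.

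Serpinb1a adjoins Serpinb6b but had another pattern. It encodes the leukocyte elastase inhibitor, which acts on neutrophil elastase, cathepsin G and proteinase 3, and it measured 10.85, 10.78, 8.79 and 11.22. Tumour 3 was lowest, by 1.99 log2 below the next tumour, and the others lay within 0.44 of each other. The second probe set was also lowest in tumour 3, at 9.50, 9.21, 8.28 and 9.69, with a smaller range of 1.40, so that the mean of both had a range of 1.92. The summed signal of 15 neutrophil and mast cell markers, 4 of them expressed, was 2506 in tumour 3 and 6854, 4513 and 4104 in tumours 1, 2 and 4. Of these 4, Fcgr3a and Kit were the brightest and were lowest in tumour 3, whereas the mast cell genes Cpa3 and Tpsb2 were lowest in tumour 4. The other 11 measured genes were under the filter. The sum thus leans on Kit and Fcgr3a and is not a measure of neutrophils. Tumour 3 was lowest for 13.9% of all expressed genes. The macrophage and basal sums were lowest in tumour 3 as well, where 13 of 15 expressed macrophage and 8 of 16 expressed basal markers were lowest. The 17 basal markers summed to 36755 in tumour 3 and 50384, 44774 and 51123 in tumours 1, 2 and 4. The part of these markers in the Serpinb1a level was not tested.

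The other 5 genes of clade B were under the filter in every tumour. They were Serpinb3, a relative of human squamous cell carcinoma antigen, Serpinb7, Serpinb9b, Serpinb11 and Serpinb12, with single values between 4.46 and 7.44. Serpinb9b, which adjoins Serpinb9, stayed between 4.92 and 5.19, under the filter throughout.

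**Figure D3:**
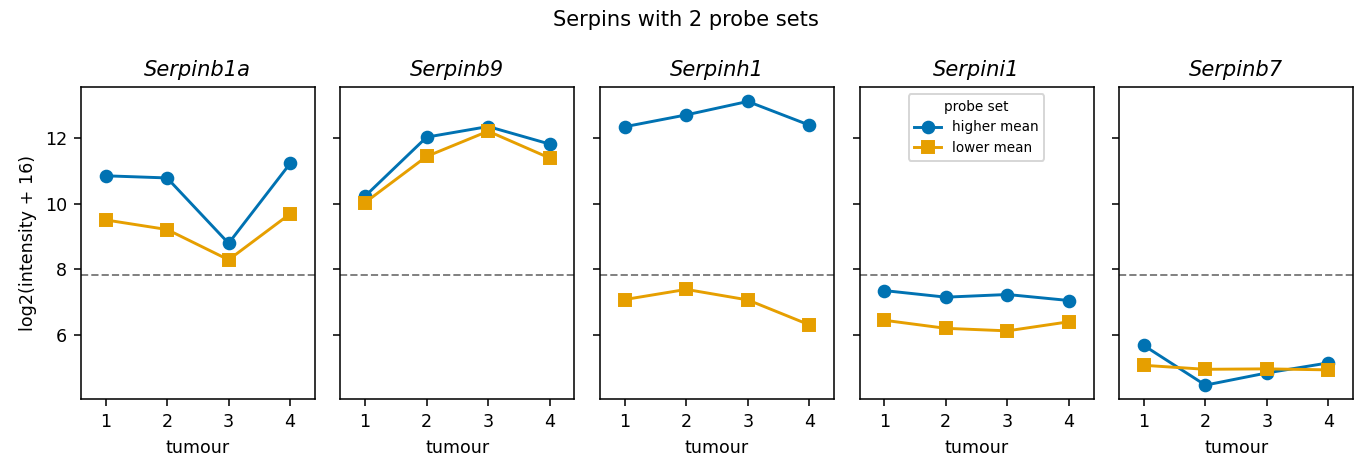
Both probe sets of the 5 serpins that have 2, as log2(intensity + 16) by tumour, with the brighter set in blue and the dimmer in orange; lines join the 4 tumours of a probe set for the eye only and the dashed line is the filter level. The 2 sets run in parallel for Serpinb1a and Serpinb9, whereas the dimmer set of Serpinh1 and all sets of Serpini1 and Serpinb7 lie under the filter.

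Wfdc2 and Slpi, the whey acidic protein members, lie on chromosome 3 with 7 genes between them and did not share a pattern. Wfdc2, known in humans as a secreted marker of ovarian carcinoma, measured 9.24, 11.95, 12.10 and 11.97. Tumour 1 was 2.71 log2 below the next tumour, whereas the other 3 lay within 0.15 of each other. Slpi measured 9.16, 9.52, 8.47 and 9.23, with tumour 3 lowest and a range of 1.05 (0.96 with a pseudocount of 64). Luminal epithelial markers were low in the tumour where Wfdc2 and Serpinb9 were low: 13 of 15 expressed markers were lowest in tumour 1, where 44.0% of all expressed genes were lowest, and the 17 measured markers summed to 39105 in tumour 1 and 70319, 80389 and 69689 in tumours 2 to 4. Their part in the Wfdc2, Serpinb9 and Serpinb6b levels was not tested.

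**Figure D4:**
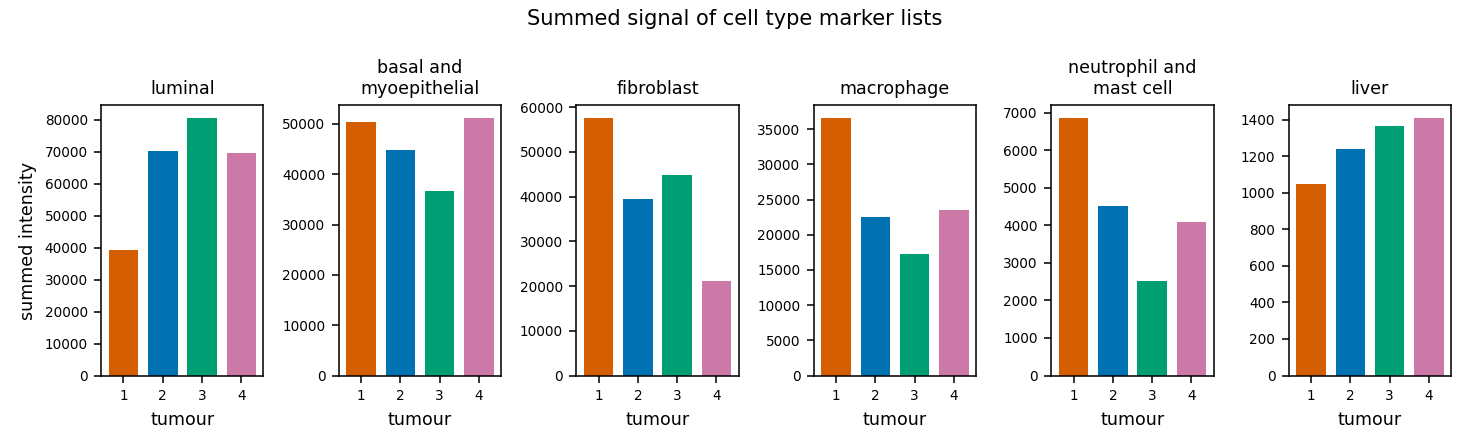
Summed intensity of all measured genes of 6 cell type marker lists in each tumour, with a separate scale from 0 for each list because levels cannot be compared between probe sets. Tumour 1 has the lowest luminal sum and the highest fibroblast and macrophage sums, and tumour 4 has the lowest fibroblast sum.

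Clade E was led by Serpine2, protease nexin 1, a secreted and matrix-bound inhibitor of thrombin, urokinase and plasmin. It measured 12.18, 10.58, 10.78 and 10.04. Tumour 1 was highest by 1.40 log2 and tumour 4 lowest, a range of 2.14. Serpine3, a little studied relative, stayed under the filter at 6.58 to 6.99.

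The expressed members of clades F, G and H had ranges under 2 log2. Serpinf1, pigment epithelium-derived factor, which restrains angiogenesis and inhibits no protease, measured 11.68, 11.43, 11.23 and 10.72, and its range was 0.96 (1.01 after quantile normalization). Serping1, the inhibitor of complement proteases C1r and C1s and of the contact system, measured 9.71, 10.45, 9.44 and 8.77. Tumour 2 was highest and tumour 4 lowest, 1.69 apart. Serpinh1, the collagen chaperone of the endoplasmic reticulum, measured 12.34, 12.70, 13.11 and 12.39, with tumour 3 highest. Its probe set is of a type that may match more than 1 transcript, and the other set, under the filter at 7.07, 7.38, 7.06 and 6.30, gave tumour 2 as highest and tumour 4 as lowest, so the pattern of Serpinh1 is uncertain.

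Fibroblast markers were lowest in tumour 4 for 12 of 14 expressed genes (30.6% of all expressed genes), and all 15 summed to 57517, 39497, 44876 and 21115. Serpine2, Serpinf1 and Serping1 were lowest in tumour 4 too, and Serpine2 and Serpinf1 were highest in tumour 1, as the fibroblast sum was. The part of fibroblast transcripts in these levels was not tested.

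Clade A lay mostly under the filter. Of its 12 genes only Serpina4, kallistatin, an inhibitor of tissue kallikrein, was expressed, at 8.03, 8.08, 7.81 and 8.09, close to the filter level and with a range of 0.28. Serpina3n, a rodent antichymotrypsin-like inhibitor induced in inflammation, measured 7.01, 8.43, 6.71 and 7.05. Tumour 2 reached the filter level and was 1.38 above the next tumour. Serpina12, the adipokine vaspin, also had its highest value in tumour 2, at 6.02, 7.51, 5.66 and 5.82, all under the filter. Adipocyte markers summed to 5529 in tumour 2 and to 4919, 4392 and 4233 in tumours 1, 3 and 4, with 4 of 12 measured genes expressed. Of these 4, Cfd and Lpl were highest in tumour 2 (32.1% of all expressed genes), whereas Lipe and Pnpla2 were highest in tumour 3. The part of these markers in the Serpina12 level was not tested. The remaining 9 were Serpina1, the elastase inhibitor of plasma, Serpina5, which inhibits activated protein C, Serpina6 and Serpina7, carriers of glucocorticoids and thyroid hormone, Serpina10, an inhibitor of clotting factor X, Serpina11, Serpina3c, Serpina3l and Serpina3m. Their single values lay between 4.15 and 7.36. The Serpina3 genes are close copies of each other, so their probe sets may share signal.

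The liver-type serpins of other clades were also under the filter in every tumour. Serpinc1, antithrombin, stayed between 4.54 and 4.83, and Serpind1, heparin cofactor II, between 5.97 and 6.50. Serpinf2, the plasmin inhibitor antiplasmin, lay between 5.58 and 6.60 although its chromosome 10 neighbour Serpinf1 was expressed. In clade I, Serpini1, neuroserpin, an inhibitor of tissue plasminogen activator, stayed between 7.04 and 7.35, and Serpini2 between 4.48 and 6.16. Liver markers summed to 1048, 1241, 1362 and 1407, with the single highest value of any at 8.36.

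The proteases and partners of these inhibitors came from 7 lists. In the plasminogen list 10 of 19 measured genes were expressed and 2 had a 2-fold range (13.0% of all expressed genes). One was Plau, urokinase, a target of Serpinb2 and Serpine2, at 10.55, 9.18, 8.95 and 9.35. It was highest in tumour 1, as both inhibitors were, and its other probe set agreed at 9.58 against 7.90 to 8.13 in the rest. The second was F3, tissue factor, at 9.69, 9.66, 10.22 and 12.14, where tumour 4 stood out. Plat, tissue plasminogen activator, had a range of 0.47, and Plaur, the urokinase receptor, was under the filter at 6.84 to 7.32.

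Of 8 expressed complement and contact genes 7 had a 2-fold range (13.0% of all expressed genes) and 3 a 4-fold range (2.40%). C1s, a protease that starts the classical pathway, measured 12.13, 10.84, 10.65 and 9.84. C1r, which activates it, measured 11.43, 10.36, 9.95 and 9.83. Both were highest in tumour 1 and lowest in tumour 4, while Serping1, which inhibits both products, was highest in tumour 2. C3, the central complement component, was at 11.22, 8.39, 10.54 and 10.52, lowest in the tumour where Serping1 was highest.

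Of the collagen and collagen-modifying genes 27 of 30 were expressed. A 2-fold range was found for 17 (13.0% of all expressed genes) and a 4-fold range for 6 (2.40%). Tumour 4 was lowest for 14 (30.6% of all expressed genes). Col1a1, a main client of Serpinh1, measured 12.36, 12.70, 13.31 and 10.93. On its brighter probe set Serpinh1 shared the peak of Col1a1 in tumour 3 but not its low point in tumour 4. Serpinh1 was lowest in tumour 1, at 12.34, with tumour 4 at 12.39. Lox, which cross-links collagen, was at 10.78, 9.54, 9.39 and 7.93. Pcolce, which aids procollagen processing, was at 11.02, 9.23, 10.74 and 8.61, and like Lox it was highest in tumour 1 and lowest in tumour 4. Col6a1, a chain of microfibrillar collagen, was at 11.75, 11.31, 12.15 and 9.73.

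Leukocyte granule proteases, the targets of several clade B serpins, were sparse, with 3 of 14 measured genes expressed. Of these 1, Cpa3, had a 2-fold range (13.0% of all expressed genes), at 1.10 log2. Gzmb, the granzyme that human SERPINB9 inhibits, was under the filter by its mean at 6.86, 7.13, 7.40 and 7.85. Gzma, a granzyme of killer lymphocytes, was at 7.63, 8.49, 8.55 and 8.43, lowest in tumour 1 as Serpinb9 and 44.0% of all expressed genes were. Among cathepsins 13 of 15 were expressed. A 2-fold range was found for 4 (13.0% of all expressed genes) and a 4-fold range for none (2.40%). Tumour 1 was lowest for 4 of the 13 and highest for 4, against 44.0% and 20.8% of all expressed genes. Ctsl, a lysosomal cysteine protease, measured 11.19, 12.35, 11.84 and 11.64. Ctse, an aspartic protease, measured 9.33, 10.20, 11.02 and 11.28. Both were lowest in tumour 1, as Serpinb9 was, whereas Ctss, a cysteine protease of antigen-presenting cells, was highest there at 11.96, 11.14, 10.80 and 11.27.

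Among epithelial and secreted serine proteases 11 of 22 were expressed and 7 had a 2-fold range (13.0% of all expressed genes). Tumour 1 was highest for 5 of the 11 and lowest for 5, against 20.8% and 44.0% of all expressed genes. Prss23, a secreted serine protease, was high in tumour 1 at 12.17, 9.93, 9.90 and 10.17. Prss22 was low there at 9.23, 10.11, 10.96 and 11.11. Hpn, the membrane protease hepsin, was likewise lowest in tumour 1, at 8.27, 9.42, 10.02 and 9.48. Of the other protease inhibitors 13 of 29 were expressed, 4 with a 2-fold range (13.0% of all expressed genes) and 3 with a 4-fold range (2.40%). Wap, the milk protein that gives the whey acidic domain its name, was at 13.08, 11.21, 11.32 and 8.45, the reverse of Wfdc2 in being highest in tumour 1. Timp4, an inhibitor of metalloproteinases, was at 10.89, 8.29, 7.70 and 9.24, also highest in tumour 1. Cst6, a cystatin that inhibits cysteine proteases, was at 9.78, 9.88, 10.00 and 7.81, low in tumour 4 alone.

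**Figure D5:**
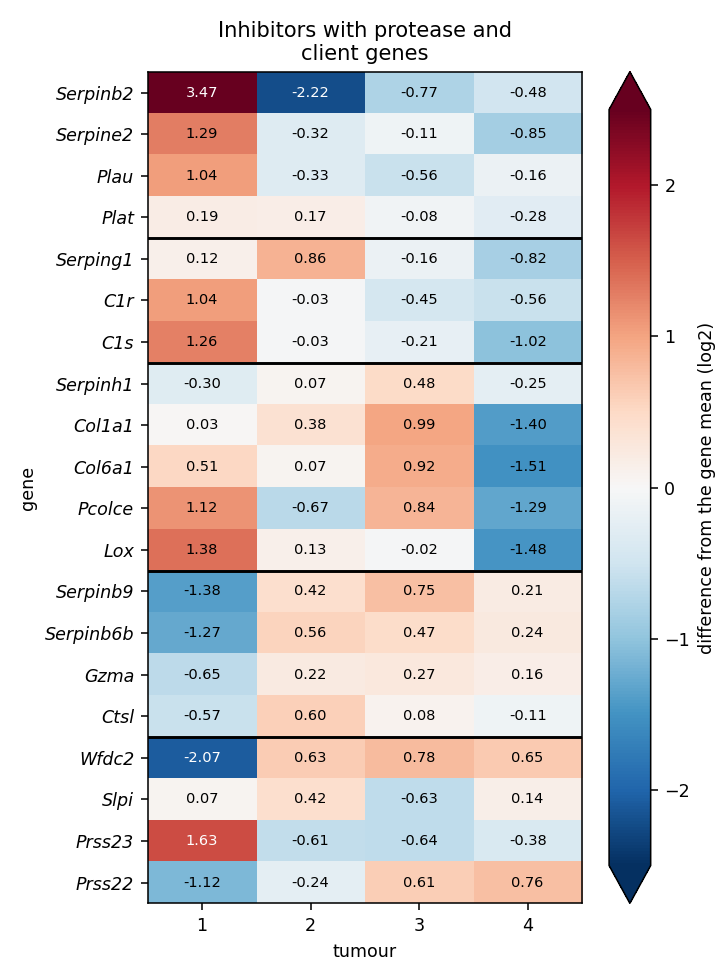
Difference of each tumour from the gene's mean over the 4 tumours (log2) for inhibitors and genes of their proteases or clients, in blocks of related genes; red is above the mean and blue below, and values beyond 2.5 in either direction take the end colour. Plau has its highest value in tumour 1 as Serpinb2 and Serpine2 do, C1r and C1s have theirs in tumour 1 while Serping1 has its own in tumour 2, and Wfdc2, Serpinb9 and Serpinb6b share their lowest value in tumour 1.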

How the data were processed

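Transcript levels were measured in 4 mammary cancers, 1 array each. Per the labels' protocols, 8 µg of total RNA was primed with oligo-dT, copied and labelled with biotin, which favours transcript 3' ends. The table deposited by the authors holds linear intensity values for 31099 probe sets. The array software is not given in the sources used here. A mean of 500.1 on every array after trimming 2% from each end shows a common scale.

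Values were taken as log2(intensity + 16) and shifted by -0.07, 0.05, 0.06 and -0.05 to a common median, with Python 3.11.15, numpy 2.4.6 and pandas 2.3.3. The median expressed gene then lay -0.13, 0.10, 0.11 and -0.08 from the mean of the other tumours. Probe sets were named from the platform annotation: 20826 named 1 gene and were used, 436 named several, 9831 had no entry and 6 were control probe sets. The identifiers of all 40 member probe sets were found in RefSeq (GRCr8), which also gave gene order and promoters. The probe set of highest mean stood for a gene. With 1 group no contrast was tested; rules of size (1 or 2 log2) describe the differences, and Dixon's gap ratio was computed for distant tumours. The number of arrays limits precision.

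Members, lists and rules were chosen with earlier results of these data known. Expressed members are given by tumour, others by range, or by value where 1 tumour reached the filter; from each protease or partner list the 4 expressed genes of largest SD were eligible, with Plau, Plat, Plaur, Gzmb, Ctsl, C1r, C1s and Col1a1 added as direct partners, and the text gives a selection. Values of Serpina12 were added after they were seen. Alternatives were the scaling, pseudocount, filter, probe-set rule and leaving out each tumour.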

Additional observations from a re-analysis of the deposited data

Results flagged for a closer look

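Dixon's gap ratio, the gap of the most distant tumour divided by the whole range, was computed for the 35 members and 29 partner genes. It passed Dixon's critical value for 4 samples in 8 of these 64 genes, against 5.99% of all 14217 genes, and chance passes about 1 in 20. Most partner genes were eligible through a large SD, so the count is a description and is not evidence about the members. Among bright members this was Wfdc2, with tumour 1 at 9.24 and the others at 11.95 to 12.10. Serpinb10 passed it with 9.88 in tumour 1 against 5.26 to 5.63. Serpina11, at 6.74 in tumour 3 against 4.79 to 4.93, Serpinc1, at 4.54 in tumour 4 against 4.79 to 4.83, and Serpind1, at 5.97 in tumour 1 against 6.46 to 6.50, were dim in every tumour. Partner genes beyond the value were Prss23 in tumour 1 (12.17 against 9.90 to 10.17), Gzma in tumour 1 (7.63 against 8.43 to 8.55) and Cst6 in tumour 4 (7.81 against 9.78 to 10.00). The gap ratio of Serpinb2 was 0.70, since the other 3 tumours spanned 1.74 log2.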

How the results depend on the processing

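No paired analysis was possible because the samples form 1 group. With values as deposited or after quantile normalization 3 expressed members kept a 4-fold range, Serpinb9 falling to 1.996 and 1.91, and with probe sets averaged Serpinb1a fell to 1.92. With all 35 members and no filter, 21 had a 2-fold and 7 a 4-fold range (21.0% and 3.96% of all genes), and 7, 3 and 4 were apart in tumours 1, 2 and 3 (3.00%, 0.893% and 1.53%); dim probe sets were then included. A filter on the highest tumour, chosen after seeing the data, put 2 members apart in tumour 2 (0.696% of all genes), Serpina3n and Serpinb2, which each passed it through 1 tumour, so nothing is read from this count. Leaving out 1 tumour at a time gave 3 to 7 members with a 2-fold range, 1 to 4 with a 4-fold range and a median SD of 0.36 to 0.53. It gave 4 members apart in tumour 1, 0 to 1 in tumour 2, 1 in tumour 3 and 0 in tumour 4. The rule for apart is easier to meet with fewer tumours, so these counts could hardly fall and do not show stability. For 43 genes, the difference between the tumours highest and lowest in the main setting was recomputed under the other alternatives. Of these 344 differences 341 moved by less than the SD between tumours and 3 moved further. None of at least 1 log2 changed sign. Filter changes cannot move such a difference, and probe-set rules cannot move that of a gene with 1 probe set. Many of the 341 were therefore fixed in advance. The 3 that moved further were all of Serpinh1, as tumour 3 minus tumour 1. They were 0.38 after quantile normalization, 0.38 with probe sets averaged, and -0.01 on its dim probe set, whose own range was 1.08. Signals near the floor, as for Serpinb2 outside tumour 1, leave the size of a difference uncertain.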
